A study of Mus musculus with 236 samples.

Results

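The genes described here are the ligands and receptors of the 4 classical axon guidance systems, taken from the mouse gene symbols of the semaphorins, plexins, neuropilins, Slits, Robos, netrins, netrin receptors, ephrins and Eph receptors. The name pattern matched 71 of the 39300 genes in the expression table, 37 ligands and 34 receptors. Of these, 50 had at least 20 unique molecular identifiers (UMIs, tags that count single RNA molecules) over both days, and 27 had at least 100 UMIs.

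Axon guidance proteins are surface and secreted cues that steer growing nerve fibres, and most of them also act outside the nervous system, where they set cell adhesion, cell shape and the borders between tissues. Semaphorins signal through plexins, and most secreted class 3 semaphorins need a neuropilin as co-receptor. Slits bind Robo receptors, netrins bind Dcc, neogenin and the Unc5 receptors, and ephrins bind Eph receptor tyrosine kinases, with ephrin-A ligands held on the membrane by a lipid anchor and ephrin-B ligands spanning it.

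RNA and chromatin contacts were read from the same single cells with HiRES, a method that captures both from each cell, in 1 female mouse embryonic stem cell (mESC) line with a C57BL/6J mother and a CAST/EiJ father. All cells came from this line, which was kept in serum medium with leukemia inhibitory factor (LIF), the GSK3 inhibitor CT99021 and the MEK inhibitor PD0325901. Differentiation was started by taking LIF and both inhibitors away on fibronectin-coated plates, a change that brings naive cells out of self-renewal and, in female cells, starts random X inactivation. The cells were taken at day 0.5 and at day 2.5 after that change, without untreated cells in the comparison, and the comparison asks how expression of the guidance genes differed between these 2 days. No separate cultures are named in the labels, and each day was therefore treated as 1 sample, without p-values.

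The day 0.5 group held 201 cells with 2655980 UMIs and the day 2.5 group held 205 cells with 3186073 UMIs. The cell tables give each cell 1 of 3 batch labels, and no source used here says what it stands for. Batch 1 held 80 day 0.5 cells, batch 2 held 121 day 0.5 and 122 day 2.5 cells, and batch 3 held 83 day 2.5 cells, with median depths of 11636 to 16831 UMIs per cell in these 4 cell sets. Exon UMIs made up 26.3% of gene UMIs at day 0.5 and 24.2% at day 2.5, so most UMIs fell outside exons. Of the marker lists, the naive list (among them Esrrb, Zfp42 and Klf4) summed to 969 to 1047 CPM in the day 0.5 sets and 44.5 to 58.5 CPM in the day 2.5 sets. The formative list (among them Fgf5, Dnmt3b and Otx2) summed to 835 to 843 CPM and to 2008 to 2301 CPM. The general pluripotency list (Pou5f1, Sox2, Sall4 and Tdgf1) summed to 412 to 419 CPM and to 301 to 340 CPM. Over all cells, Pou5f1 went from 31.3 to 13.5 CPM and Sox2 from 32.8 to 7.06 CPM, both lower by the rule given below. Sall4 (133 and 127 CPM) and Tdgf1 (218 and 175 CPM), which made up most of the sum, passed in neither direction. Neuroectoderm, primitive streak, endoderm, trophectoderm, fibroblast and blood lists each summed to less than 20 CPM in every set. The endothelium list (mostly Pecam1, with Tek and Cdh5) summed to 227 to 268 CPM early and 63.1 to 63.7 CPM late. The two-cell-like list summed to 57.3 to 59.2 CPM and to 13.5 to 17.7 CPM, with Zscan4c and Zscan4d at 0.

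UMIs were summed within each set and the level is given as CPM, UMIs per 1000000 UMIs of that set. A gene was called higher or lower at day 2.5 when the ratio of CPM over all cells passed 1.5 in that direction and both disjoint comparisons, batch 2 against batch 2 and batch 3 against batch 1, ran the same way. By this rule 31 of the 50 measured guidance genes were higher at day 2.5, against 20.7% of all 13777 genes with at least 20 UMIs. Lower at day 2.5 were 9 of the 50, against 24.6% of all genes. The remaining 10 genes passed in neither direction. With at least 100 UMIs, 16 of 27 guidance genes were higher, against 19.8% of 7716 genes, and 5 were lower, against 20.4%. The median log2 change of the 50 genes, on the log2(CPM + 5) scale, was 0.58, beside -0.06 for all genes, and it was 0.56 without Sema6a. In 39 of the 40 called genes the 2 day 0.5 sets and the 2 day 2.5 sets did not overlap, the exception being Plxna4. This was so in 97.3% of all called genes and 67.8% of all measured genes, and the call itself asks for the same direction in both batch comparisons, so the count is not particular to the guidance genes. In 6 of the 40 (Epha10, Plxna3, Plxna4, Sema3f, Sema4a and Unc5c) the counting interval of the ratio includes 1.

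**Figure D1:**
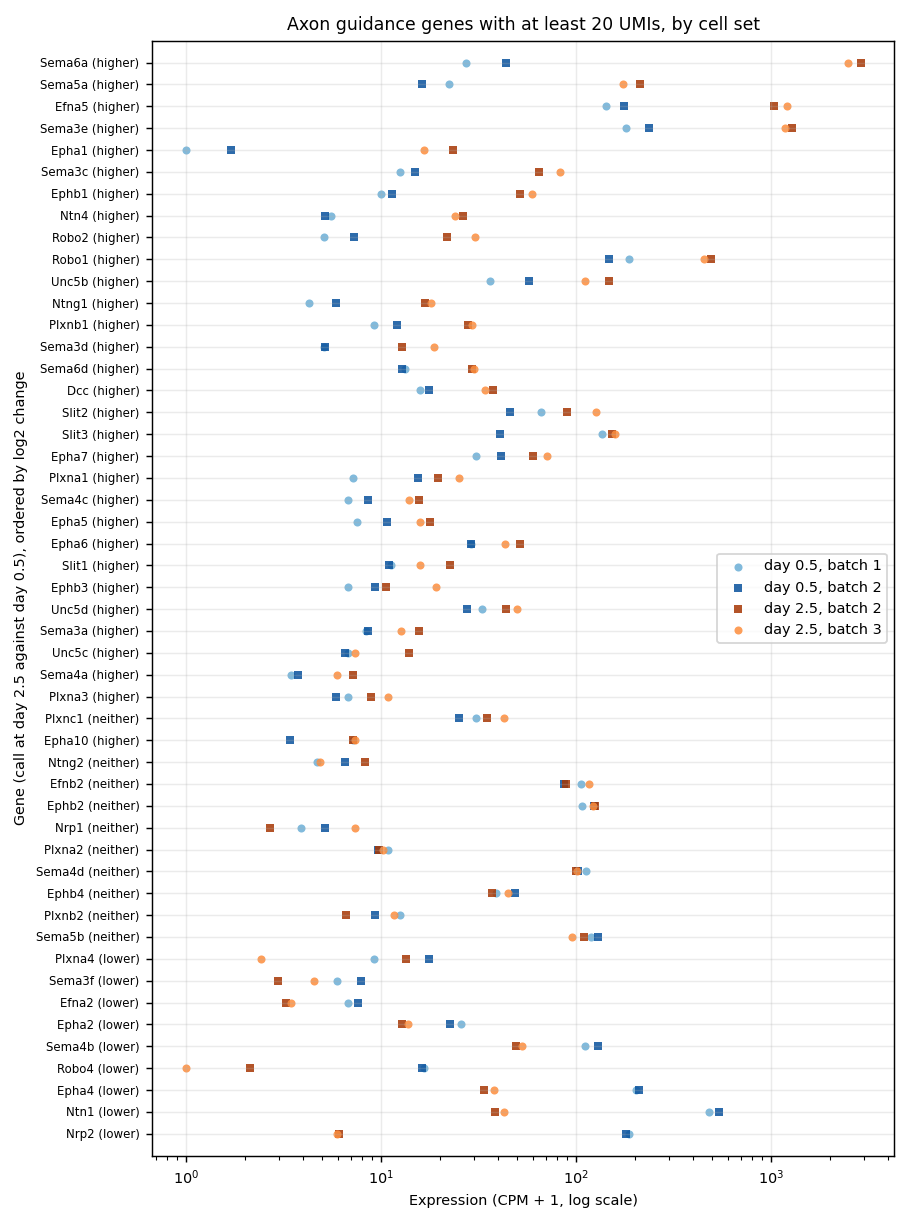
Expression of the 50 guidance genes with at least 20 UMIs in each of 4 cell sets, as CPM + 1 on a log axis, with genes ordered by their log2 change and the call beside each name. The upper 4 genes are Sema6a, Sema5a, Efna5 and Sema3e, the lowest 4 are Robo4, Epha4, Ntn1 and Nrp2, and in 39 of the 40 called genes the points of the 2 days do not overlap, beside 97.3% of all called genes.

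Together the 71 genes took 0.267% of all UMIs at day 0.5 and 0.743% at day 2.5. At day 0.5 the 5 genes with the most UMIs, Ntn1, Sema3e, Epha4, Nrp2 and Robo1, held 47.8% of the guidance UMIs. At day 2.5 the 5 were Sema6a, Sema3e, Efna5, Robo1 and Sema5a, with 77.01%. In sum, ligand RNA was 3.78 times as high at day 2.5 and receptor RNA 1.23 times. Without Sema6a the ligands were 2.16 times as high. The 37 ligands summed to 1590 and 1655 CPM in the day 0.5 sets of batches 1 and 2 and to 6271 and 5982 CPM in the day 2.5 sets of batches 2 and 3. The 34 receptors summed to 1029 and 1062 CPM and to 1303 and 1274 CPM. By count, 15 of 23 measured ligands and 16 of 27 measured receptors were higher, and 4 and 5 were lower.

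**Figure D2:**
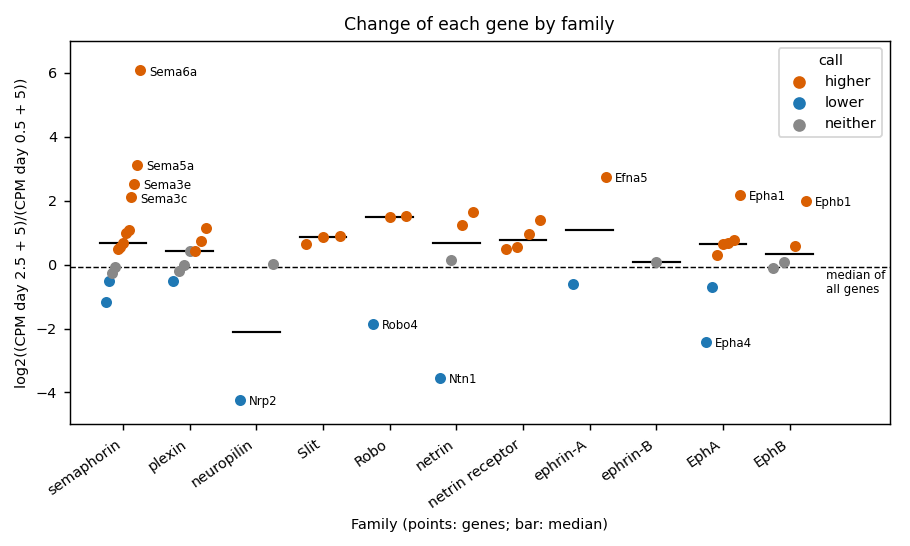
Change of each measured guidance gene, as log2((CPM day 2.5 + 5)/(CPM day 0.5 + 5)), by family, with the median of the family as a bar and the median of all genes (-0.06) as a dashed line. Nrp2, Ntn1 and Epha4 lie furthest below the line and Sema6a furthest above it, and the 3 Slits and the 4 Dcc and Unc5 receptors shown lie above it.

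Among the semaphorins, 9 of 13 measured genes were higher at day 2.5 and 2 were lower. Sema6a, a membrane-bound semaphorin that binds plexin-A2 and plexin-A4, was at 26.3 and 43.04 CPM in the day 0.5 cells of batches 1 and 2. It was at 2884 and 2489 CPM in the day 2.5 cells of batches 2 and 3. Its level was thus low in both early sets and high in both late sets, a ratio of 76.6 over all cells (95% interval 62.5 to 94.8; this and all further intervals cover counting error only). Sema6a lies on chromosome 18 and was found in 14.4% of day 0.5 cells and 94.1% of day 2.5 cells. Sema5a, a membrane semaphorin with thrombospondin repeats, was at 21.4 and 15.3 CPM early and 213 and 174 CPM late, a ratio of 10.8 (8.07 to 14.8). Its close relative Sema5b passed in neither direction, at 118.1 and 129 CPM early and 109.3 and 94.6 CPM late, a ratio of 0.830 (0.710 to 0.970). Sema5b did gain a call with equal weight to the cell cycle classes.

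Secreted class 3 semaphorins were higher in 4 of the 5 measured cases. Those 4 lie on chromosome 5 in the order Sema3d, Sema3a, Sema3e and Sema3c, with other genes between Sema3e and Sema3c. They run from position 12383161 of Sema3d to position 17730268 of Sema3c (GRCm38). Sema3e, whose usual receptor is plexin-D1, was at 180.2 and 236 CPM in the day 0.5 sets and at 1277 and 1179 CPM in the day 2.5 sets, a ratio of 5.87 (5.37 to 6.42). Plxnd1 itself had 5.5 UMIs at day 0.5 and 3 at day 2.5, under the minimum. Sema3c was at 11.5 and 13.9 CPM and then at 63.4 and 81.5 CPM, a ratio of 5.58 (3.88 to 8.25). Sema3d and Sema3a were rarer, with ratios of 3.49 (1.78 to 7.46) and 1.77 (1.02 to 3.18) on 11 and 20 UMIs at day 0.5. The calls of Sema3d and Sema3a were both lost when each cell was thinned to 5000 UMIs. Sema3f, a class 3 semaphorin on chromosome 9 that acts through neuropilin-2, was the one called lower, at 4.94 and 6.94 CPM early and 1.97 and 3.54 CPM late, on 16 and 8.5 UMIs, and it was not called from batches 1 and 3 alone.

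The membrane-bound class 4 semaphorins were split. Sema4b was at 110.7 and 128 CPM in the early sets and 48.5 and 52.1 CPM in the late sets, so that the day 0.5 level was 2.40 times the day 2.5 level (1.98 to 2.92). Sema4d, the ligand of plexin-B1, was close to level, at 111.9 and 102.1 CPM early and 99.4 and 100.6 CPM late. Its ratio of 0.938 had an interval of 0.797 to 1.11, within 1.5 times in both directions. Sema4c and Sema4a were higher on few UMIs, with ratios of 2.05 (1.16 to 3.77) and 2.14 (0.854 to 6.07), and Sema4a was not called after thinning. Sema6d, in the same class as Sema6a, was higher with a ratio of 2.37 (1.57 to 3.67), far below that of Sema6a.

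The neuropilins, co-receptors of class 3 semaphorins and of vascular endothelial growth factors, were led by the lowest ratio of all measured guidance genes. Nrp2 (chr1:62703317-62818692, GRCm38) was at 186 and 179 CPM in the day 0.5 sets and at 5.07 and 4.96 CPM in the day 2.5 sets. Both early sets were high and both late sets were low, and the early level was 36.3 times the late level (22.1 to 64). A UMI of Nrp2 was present in 65.7% of day 0.5 cells and 6.34% of day 2.5 cells. Nrp1 had 9.5 and 12 UMIs, too few to place it.

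Of the plexins, the signalling receptors for semaphorins, 3 of 7 measured genes were higher and 1 was lower. Plxnb1 was at 8.23 and 11.1 CPM early and 27.04 and 28.3 CPM late, a ratio of 2.82 (1.80 to 4.55). Plxna1 and the X-linked Plxna3 were called higher with ratios of 1.96 (1.25 to 3.15) and 1.67 (0.849 to 3.43). Plxna1 was not called within batch 2 alone or after thinning, and the interval of Plxna3 includes 1. Plxna4 was called lower, at 8.23, 16.7, 12.4 and 1.42 CPM in the 4 sets, which overlap, and this call was lost within batch 2 and after thinning. Plxnc1, the receptor of Sema7a, had a ratio of 1.40 (1.03 to 1.90), below the threshold. Plxna2 and Plxnb2 passed in neither direction on 53 and 51 UMIs. The plexins that bind Sema6a thus stood at 9.22 (Plxna2) and 12.8 CPM (Plxna4) at day 0.5 and at 8.95 and 7.53 CPM at day 2.5.

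In the Slit and Robo system all 3 Slit ligands and 2 of 3 measured receptors were higher at day 2.5, and 1 receptor was lower. Robo1, the widely expressed Slit receptor, was at 187 and 146 CPM in the day 0.5 sets and 492 and 451 CPM in the day 2.5 sets, a ratio of 2.87 (2.58 to 3.20). Its neighbour on chromosome 16, Robo2, was at 4.11 and 6.25 CPM and then at 20.8 and 29.4 CPM, a ratio of 4.67 (2.63 to 8.94). Robo4, the Robo best known from blood vessel lining, was at 15.6 and 15.3 CPM early and at 1.13 and 0 CPM late. Only 2 UMIs were left at day 2.5, and the early level was 24.6 times the late level (6.39 to 209.9). Without the cell of each day that held the most Robo4 UMIs, the ratio of day 2.5 over day 0.5 went from 0.041 to 0.021. The endothelial marker Pecam1, which mESC also express, went from 239 and 203 to 41.7 and 46.4 CPM over the same sets. Tek, on the same marker list, had a UMI in 51 of 201 day 0.5 cells and 43 of 205 day 2.5 cells. It was at 26.2 and 18.7 CPM over all cells of the 2 days and passed in neither direction. Cdh5, also on that list, had a UMI in 0 of 201 day 0.5 cells and in 3 of 205 day 2.5 cells. For this count of 0, 3 cells or 1.49% with a UMI is the upper limit. The part of endothelial-like cells in the Robo4 result was not tested.

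Slit2 was at 64.99 and 45.1 CPM early and 88.7 and 126 CPM late, a ratio of 1.95 (1.60 to 2.38). Slit3 was at 135 and 39.9 CPM early and 152 and 158 CPM late, so that batch 1 lay close to the late sets and only batch 2 lay far below them. A single batch 1 cell held 63 of the 221.5 Slit3 UMIs of day 0.5. The ratio of 1.85 over all cells became 2.43 without the top cell of each day, and Slit3 was not called from batches 1 and 3 alone. Slit1 had a ratio of 1.84 (1.15 to 3.01) on 27 and 59.5 UMIs and was likewise not called from batches 1 and 3 alone.

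The netrin ligands diverged. Ntn1, a secreted laminin-like cue (chr11:68209364-68386826), was the guidance gene with the most UMIs at day 0.5, at 478 and 541 CPM, and was at 37.5 and 41.8 CPM at day 2.5. Both late sets were far below both early sets, and the early level was 13.01 times the late level (10.8 to 15.7). Ntn4, a netrin of basement membranes, was at 4.52 and 4.17 CPM and then at 25.4 and 23.03 CPM, a ratio of 5.62 (3.01 to 11.5). Ntng1, a lipid-anchored netrin, had a ratio of 3.94 (2.03 to 8.38), and its relative Ntng2, with 12.5 and 18.5 UMIs, passed in neither direction. In sum the netrins went from 493 and 560 CPM to 87.6 and 87.5 CPM.

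The 4 measured receptors of the Dcc and Unc5 type were higher at day 2.5, opposite to Ntn1, whereas neogenin (Neo1), which the name pattern did not include, was not. Neo1, the netrin receptor with the most UMIs in these cells, was at 232 and 257 CPM early and at 160.01 and 197 CPM late, a ratio of 0.719 (0.641 to 0.806) that passed in neither direction. Unc5b, a receptor linked to repulsion and to cell survival, was at 35.4 and 56.2 CPM in the early sets and 148 and 110.2 CPM in the late sets, a ratio of 2.81 (2.29 to 3.46). Dcc, the receptor for attraction to netrin, was at 14.8 and 16.7 CPM and then at 36.6 and 33.3 CPM, a ratio of 2.22 (1.55 to 3.25). Unc5d had a ratio of 1.56 (1.18 to 2.08). Unc5c had one of 1.78 (0.936 to 3.53), an interval that includes 1, and its call was lost from batches 1 and 3 alone and without the top cell of each day. The calls of Unc5c and Unc5d were also lost after thinning.

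The ephrin-A ligands and EphA receptors held genes that differed in both directions, and stretches of 250 bases before an annotated transcript start of the highest and the lowest measured gene of each family are shown because these pairs moved apart. They are from RefSeq (GRCm38.p6), on the strand of the gene, with matches to the GC box CCGCCC (either strand) in capitals. Those of Epha1 and Epha4 lie before a transcript start inside the gene and run 46 and 19 bases into its listed span.
Epha1 (higher, chr6:42373269-42373518, minus strand): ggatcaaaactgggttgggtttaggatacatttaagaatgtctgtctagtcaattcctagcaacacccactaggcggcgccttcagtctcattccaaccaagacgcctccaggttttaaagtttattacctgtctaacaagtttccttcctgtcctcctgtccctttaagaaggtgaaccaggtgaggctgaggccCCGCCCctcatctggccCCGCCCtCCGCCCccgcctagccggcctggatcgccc
Epha4 (lower, chr1:77515089-77515338, minus strand): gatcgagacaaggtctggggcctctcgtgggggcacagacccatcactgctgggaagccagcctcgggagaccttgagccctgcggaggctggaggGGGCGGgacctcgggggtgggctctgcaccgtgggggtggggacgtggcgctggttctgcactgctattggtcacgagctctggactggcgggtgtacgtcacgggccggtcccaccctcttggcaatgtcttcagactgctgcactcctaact
Efna5 (higher, chr17:62881318-62881567, minus strand): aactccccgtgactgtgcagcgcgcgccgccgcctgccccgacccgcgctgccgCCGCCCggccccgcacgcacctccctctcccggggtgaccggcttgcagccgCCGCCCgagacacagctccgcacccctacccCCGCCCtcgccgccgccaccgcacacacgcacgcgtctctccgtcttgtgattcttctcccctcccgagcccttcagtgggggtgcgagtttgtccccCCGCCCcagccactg
Efna2 (lower, chr10:80179232-80179481, plus strand): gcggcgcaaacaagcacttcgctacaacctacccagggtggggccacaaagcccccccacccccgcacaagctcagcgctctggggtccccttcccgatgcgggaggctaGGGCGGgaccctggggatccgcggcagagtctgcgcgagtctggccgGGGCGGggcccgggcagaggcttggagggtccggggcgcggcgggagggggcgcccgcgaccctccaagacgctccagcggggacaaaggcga
The GC box was found 3, 1, 4 and 2 times in the stretches of Epha1, Epha4, Efna5 and Efna2, which hold 9, 14, 32 and 25 CG dinucleotides. It occurred in 32.7% of all 32851 promoter stretches of this length and in 55.3% of the 12727 stretches of measured genes. Of the stretches of guidance genes called higher, 24 of 34 (from 26 genes) held it, and of those called lower 6 of 7 (from 6 genes). For genes that passed in neither direction it was 8 of 13 (from 10 genes). The E-box CACGTG, the estrogen-related receptor half-site AAGGTCA, the octamer ATGCAAAT, the TATA box TATAAA and the TCF/LEF site CTTTGAT were searched on both strands as well. They occurred in 6.02%, 4.08%, 1.60%, 12.4% and 3.21% of all stretches and in none of these 4, and no match shown overlaps another. Entries were found for 61 of the 71 genes.

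Efna5 (chr17:62602957-62881317) was at 142 and 176 CPM in the day 0.5 sets and at 1040.3 and 1202 CPM in the day 2.5 sets, a ratio of 6.92 (6.25 to 7.67). The early and late sets were far apart in both batch comparisons. Efna2 was the other measured ephrin-A, at 5.76 and 6.60 CPM early and 2.25 and 2.48 CPM late, on 16.5 and 7.5 UMIs, so that the early level was 2.64 times the late level (1.05 to 7.31). Efna1, Efna3 and Efna4 were under the minimum, with 0 to 11 UMIs at either day.

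Of the EphA receptors, 5 were higher and 2 were lower. Epha4, which binds ephrins of both classes, was at 203 and 209 CPM early and at 32.7 and 36.8 CPM late, so that the early level was 5.98 times the late level (4.86 to 7.40). Epha2 had an early level 1.88 times its late level (1.24 to 2.88), a call lost after thinning. Epha1 went from 1 UMI at day 0.5 to 62 UMIs at day 2.5, 0 and 0.694 against 22.5 and 15.6 CPM, a ratio of 51.7 with an interval of 8.94 to 2074. Epha1 overlaps Zyx, which had 28 UMIs at day 2.5. No source used here says whether counting used the strand, so the reads of this pair may not be fully separate and the value of Epha1 is uncertain. Epha7, Epha6 and Epha5 had ratios of 1.81 (1.41 to 2.34), 1.67 (1.26 to 2.24) and 1.93 (1.15 to 3.35), and each lost its call in some settings. Epha7 was not called within batch 2 alone or with equal weight to the cell cycle classes, Epha6 not with the mean over cells, and Epha5 not when both letters in the cell names had to run the same way. Epha10 sat at the threshold, with 11 and 20 UMIs and a ratio of 1.52 (0.692 to 3.50), and was not called from batches 1 and 3 alone. In sum the EphA receptors went from 301 and 315 CPM to 201 and 206 CPM, the reverse of the count of genes, with Epha4 alone at 206 of the 309 CPM of all cells at day 0.5.

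In the ephrin-B system the ligand and 2 of 4 receptors passed in neither direction. Efnb2, the only measured ephrin-B, was at 105.7 and 85.4 CPM early and 88.5 and 116.2 CPM late, and its ratio of 1.06 had an interval of 0.899 to 1.26. Ephb4, its usual receptor, was at 37.8 and 47.6 CPM and then at 36.3 and 43.9 CPM. Ephb2 was at 106.9 and 123 CPM and then at 124 and 121 CPM. The sets of the 2 days overlapped for all 3 genes. Ephb1 stood apart, at 9.05 and 10.4 CPM early and 50.4 and 58.5 CPM late, a ratio of 5.51 (3.64 to 8.68). Ephb3 had a ratio of 1.86 (1.06 to 3.39) on 19 and 42.5 UMIs and was not called within batch 2 alone.

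The 21 genes under the minimum had at most 11.5 UMIs at day 0.5 and at most 15 at day 2.5. They were Efna1, Efna3, Efna4, Efnb1, Efnb3, Epha3, Epha8, Ephb6, Ntn3, Ntn5, Plxnb3, Plxnd1, Robo3, Sema3b, Sema3g, Sema4f, Sema4g, Sema6b, Sema6c, Sema7a and Unc5a. The counting interval of the ratio included 1 in 19 of them. It left out 1 in Efnb3, with 11.5 and 4 UMIs and a ratio of 0.290 (0.068 to 0.967), and in Plxnb3, with 11 and 3 UMIs and a ratio of 0.227 (0.041 to 0.861), both lower at day 2.5 on few UMIs. Of the X-linked members Efnb1, Plxna3 and Plxnb3, the allele table held 0 to 2 UMIs per allele and day, so no allelic share was computed.

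Because most UMIs were not on exons, the order of levels between genes is given per kilobase of gene span. On that scale Sema4b led at day 0.5 with 3.02 CPM per kb, followed by Ntn1 with 2.89, Efnb2 with 2.15, Ephb4 with 1.77 and Nrp2 with 1.58. At day 2.5 Sema6a led with 21.5 CPM per kb, followed by Sema3e with 5.33, Efna5 with 3.99, Efnb2 with 2.29 and Unc5b with 1.90. Efnb2 was thus among the leading 4 genes on both days without a called change. Robo1 was at 0.162 and 0.465 CPM per kb, since it spans 1020 kb.

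The level per cell is given as CPM of that cell. Sema6a had a median of 0 CPM in both day 0.5 sets and medians of 2572 and 2026 CPM per cell in the day 2.5 sets. Sema3e was present in most cells of both days, with medians of 97.5 and 128 CPM early and 1099 and 949 CPM late. Ntn1 had medians of 277 and 207 CPM early, with single cells up to 4680 CPM, and a median of 0 in both late sets. Efnb2 had medians of 51.9 to 70.2 CPM in the 4 sets.

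**Figure D3:**
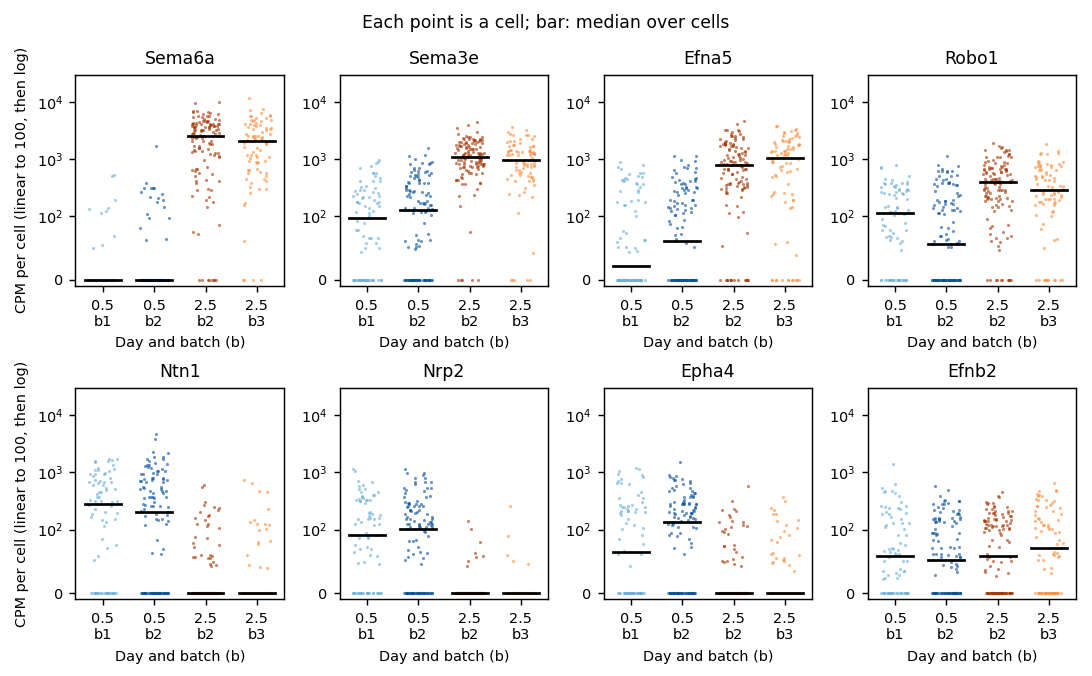
CPM per cell of 8 guidance genes in the 4 cell sets (day above batch on the x axis), with each point a cell and the bar the median. Sema6a, Sema3e, Efna5 and Robo1 lie higher in the day 2.5 sets, Ntn1, Nrp2 and Epha4 lie higher in the day 0.5 sets with medians of 0 later, and Efnb2 has medians of 51.9 to 70.2 CPM throughout.

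After each cell was thinned to 5000 UMIs, which kept 194 day 0.5 and 198 day 2.5 cells, a UMI of Sema6a was found in 7.73% and 92.4% of cells. The shares were 48.5% and 93.4% for Sema3e, 37.6% and 85.9% for Efna5, and 47.4% and 75.3% for Robo1. They ran downward for Ntn1, from 57.2% to 14.6%, for Epha4, from 43.8% to 15.2%, and for Nrp2, from 42.8% to 1.52%. Without thinning the shares of cells at days 0.5 and 2.5 were 65.7% and 95.1% for Sema3e, 51.7% and 87.3% for Efna5, 61.2% and 89.8% for Robo1, 64.7% and 24.9% for Ntn1, and 59.2% and 26.8% for Epha4. As a background, the blood genes Hba-a1 and Ptprc had a UMI in 0 and 6 of 201 early cells and in 0 and 4 of 205 late cells. The fibroblast genes Col3a1 and Thy1 had a UMI in 0 and 12 early cells and in 3 and 5 late cells. Without thinning, the late share of Nrp2 was 6.34%, above the 1.46% of Col3a1. It was near the 5.85% of the trophectoderm marker Gata3 and below the 11.7% of the endoderm marker Gata4. These markers give no single background level.

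**Figure D4:**
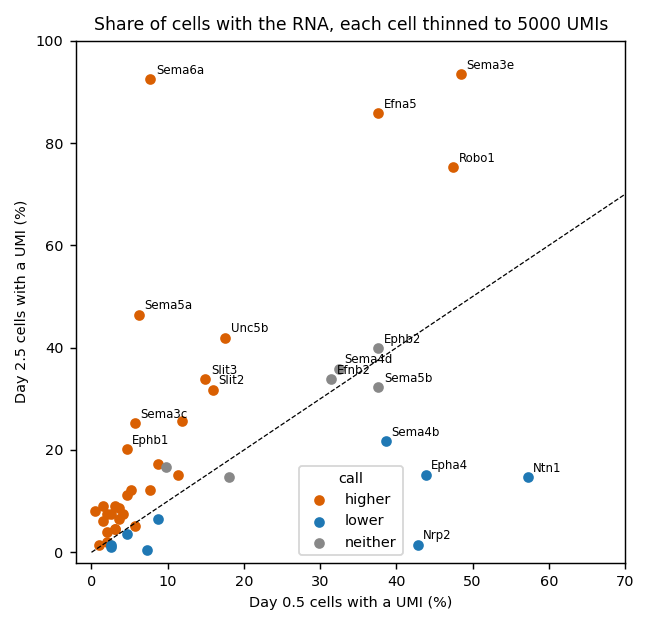
Share of cells with at least 1 UMI of each named guidance gene at day 0.5 (x axis, %) and day 2.5 (y axis, %), with every cell thinned to 5000 UMIs and colours for the call. Sema6a moves from 7.73% to 92.4%, Ntn1, Epha4 and Nrp2 lie well below the dashed line of equal shares, and Efnb2, Ephb2 and Sema4d lie near it.

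Ligand and receptor RNA in the same cell was counted for 17 textbook pairs. Such a share depends on how many cells hold each gene alone. Slit2 was in 56 and Robo1 in 123 of 201 cells early, and they were in 91 and 184 of 205 cells late. The shares were not compared with those of genes that vary independently, so they are not read as co-expression. Slit2 and Robo1 were found together in 18.9% of day 0.5 cells (Clopper-Pearson 95% interval 13.7% to 25.0%) and 41.5% of day 2.5 cells (34.6% to 48.5%), and in 8.25% and 25.3% after thinning. Sema6a and Plxna2 were found together in 3 of 201 and 24 of 205 cells, and in 0% and 4.55% after thinning. Ntn1 with Neo1 was found in 57.2% of cells early (50.1% to 64.2%) and 18.5% late (13.5% to 24.5%), and in 38.1% and 6.57% after thinning. Ntn1 with Unc5b was in 27.9% and 17.6% of cells (11.3% and 6.57% after thinning) and Ntn1 with Dcc in 12.9% and 5.85% (2.58% and 1.01%), although both receptors were higher late. Efna5 with Epha4 was in 31.3% (25.0% to 38.2%) and 25.4% (19.6% to 31.9%) of cells, and in 16.5% and 14.1% after thinning, with the ligand higher and the receptor lower. Efnb2 with Ephb4 was in 21.9% and 22.4% of cells, and in 7.22% and 4.55% after thinning. Sema4d with Plxnb1 was in 14 of 201 and 41 of 205 cells, or 1.55% and 3.54% after thinning. Sema3f with Nrp2 was in 6 of 201 cells early and 0 of 205 cells late, and a count of 0 is compatible with up to 3 cells, or 1.46%. The remaining 8 pairs were found in 0 to 17 cells on either day.

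The mix of cell cycle classes, as the authors assigned them, differed between the days, with 41 of 201 cells in G1 at day 0.5 and 82 of 205 at day 2.5. Within the 4 classes that held at least 10 cells on both days (G1, early, mid and late S), 29 of the 40 called genes kept their direction in all 4. The share over all called genes is not given here, so this count is not read as particular to the guidance genes. Ntn1 was at 263 to 679 CPM across these classes at day 0.5 and 39.5 to 70.2 CPM at day 2.5. Nrp2 was at 142 to 256 CPM and 0 to 15.6 CPM, and Efna5 at 121 to 255 CPM and 797 to 1396 CPM. The classes of the 2 days did not overlap for these 3 genes, nor for other called genes such as Dcc, Efna2, Robo4, Sema4b and Unc5b. The share over all genes is not given for this either. Efna2 had 3 to 5.5 UMIs per class early and 0 to 2 late, and Robo4 had 0 or 1 late. Their separation thus turns on few UMIs. The 11 genes that differed in direction in at least 1 class were Epha2, Epha7, Ephb3, Plxna3, Sema3a, Sema4a, Sema6d, Slit1, Slit2, Unc5c and Unc5d. Epha7 was at 44.3 CPM early and 113.3 CPM late in G1 but at 40.6 and 16.2 CPM in early S. Those early S values rest on only 17 and 4 UMIs, in classes of 32 and 15 cells.

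Many guidance genes are long. Over all genes the share called higher rose with span. The guidance genes, 2 to 18 per span class, are too few to show such a trend or its absence. The 50 measured genes had a median span of 148.7 kb against 31.6 kb for all genes with a known span. Of all genes over 200 kb, 44.5% were called higher, and of the 18 guidance genes over 200 kb 17 were. Among genes of 100 to 200 kb, the shares were 30.9% of all genes and 5 of 14 guidance genes. Among genes of 50 to 100 kb they were 24.7% and 1 of 2. Among genes of 20 to 50 kb they were 17.7% and 4 of 10, and among genes up to 20 kb 13.4% and 4 of 6. The median log2 change of the guidance genes was 0.51 up to 20 kb, -0.01 from 20 to 50 kb, 0.78 from 50 to 100 kb, 0.06 from 100 to 200 kb and 0.96 over 200 kb. For all genes it was -0.21, -0.07, 0.06, 0.14 and 0.32 in the same classes. The part of gene length in the result was not tested.

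**Figure D5:**
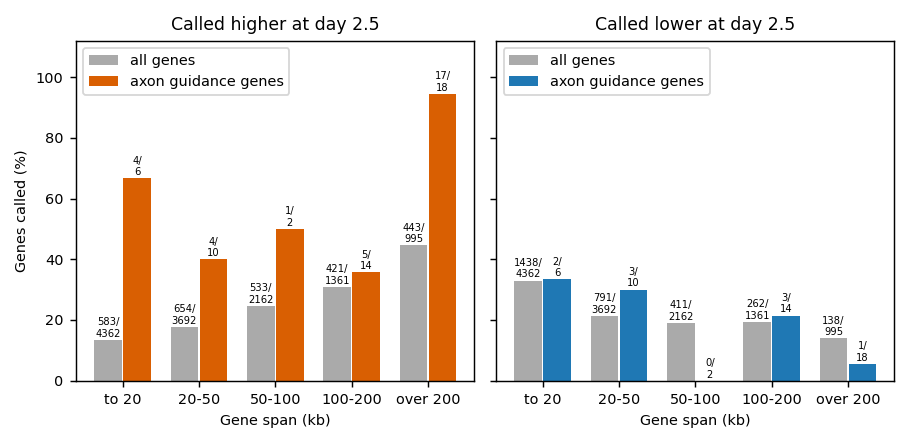
Percent of genes called higher (left) and lower (right) at day 2.5 by gene span in kb, for all genes with at least 20 UMIs and a known span (grey) and for the guidance genes (colour), with the counts above the bars. In the class over 200 kb, 17 of 18 guidance genes and 44.5% of all genes were called higher.

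Genes that act beside or below the guidance receptors were taken from a list of 75 genes, of which 68 had at least 20 UMIs. Of these, 26 were higher at day 2.5 and 9 lower, beside 20.7% and 24.6% of all genes, with a median log2 change of 0.31. The 4 higher genes with the most UMIs were Trio, a guanine nucleotide exchange factor (227 to 907 CPM), Dock1, an activator of Rac (200 to 426 CPM), Tiam1, a Rac exchange factor (184 to 368 CPM), and Dscaml1, an adhesion molecule (28.05 to 361 CPM). The 4 lower genes with the most UMIs were Enah, an actin regulator (2544 to 732 CPM), Vegfc, a growth factor that binds neuropilin-2 (298 to 36.1 CPM), Rhoa, the small GTPase (159.6 to 98.97 CPM), and Adam17, a sheddase (130 to 85.7 CPM).

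Neuron markers were read in the same cells, since guidance genes are best known from neurons. The 12 markers analysed summed to 521 and 546 CPM in the day 0.5 sets and to 384 and 402 CPM in the day 2.5 sets. Of the 9 with at least 20 UMIs, 5 were higher and 1 was lower, beside 20.7% and 24.6% of all genes. The 5 were Syt1, Elavl3, Rbfox3, Snap25 and Gap43. Syt1 was at 19.6 and 84.9 CPM and Elavl3 at 31.8 and 79.9 CPM over all cells of days 0.5 and 2.5, whereas Stmn2 was at 372 and 81.9 CPM. The neuronal markers Tubb3 and Dcx, both under 20 UMIs over both days, stood at 4.14 and 1.13 CPM at day 0.5. At day 2.5 they stood at 1.62 and 1.57 CPM. The part of neuron-like cells in the guidance results was not tested.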

How the data were processed

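Per the labels' protocols, RNA and chromatin contacts were captured together in single mESC with HiRES, and per the submitters' processing notes the genome build was GRCm38. Per gene and cell, the deposited table gives expected counts of UMIs (11.1% of values above 0 are fractions), and the deposited cell tables hold counts of gene and exon UMIs per cell, the day, the batch label and the cell cycle class. No source used here names the aligner, the counting tool or the use of strand. Of 471 cells named in the sample titles, 406 were in the table, and no cell name was shared by 2 samples. Another 1101 columns of the expression table and 893 of the allele table belong to no sample here and were not used.

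UMIs were summed per day and per batch and scaled to CPM (Python 3.11.15, pandas 2.3.3, numpy 2.4.6). Changes are log2((CPM + 5)/(CPM + 5)). A call needed a ratio of 1.5, the same direction in 2 disjoint batch comparisons and 20 UMIs over both days. No test across cultures was possible with 1 sample per day, so intervals are exact Poisson, exact conditional or Clopper-Pearson at 95% (scipy 1.17.1), and they cover counting error only. The limit printed for a count of 0 cells is 3 cells instead. The Clopper-Pearson upper limit is wider, 1.78% for 0 of 205 cells and 1.82% for 0 of 201. For thinning, fractions were rounded at random in proportion. Positions and promoter stretches came from RefSeq tables of the same build. Named were guidance genes with 100 UMIs, and those with 20 to 100 UMIs that were called, and of the signalling list the 4 called higher and the 4 called lower with the most UMIs. Nrp1, Ntng2, Plxna2 and Plxnb2 were named as well, after their values were seen. The guidance genes, the other lists and the rules were chosen with earlier results of these data known. The calls and intervals were tried on simulated Poisson counts, without spread between cells or batches. Only genes with at least 100 UMIs at day 0.5 were scored, with known changes well above the ratio of 1.5. The simulation therefore does not cover calls on fewer UMIs or with ratios near 1.5.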

Additional observations from a re-analysis of the deposited data

How the results depend on the processing

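The count of 31 higher guidance genes stayed within 1.5 times under the other scaling, pseudocount, direction, batch, depth and cell cycle alternatives, and was 16 with a minimum of 100 UMIs (27 genes) and 18 with a ratio of 2. The count of 9 lower genes was 5 with a minimum of 100 UMIs, and that of lower signalling genes went from 9 to 5 with a ratio of 2. Calls lost numbered 15 with a ratio of 2, 8 after thinning to 5000 UMIs, 5 when both letters in the cell names had to run the same way, 4 within batch 2, 5 between batches 1 and 3, 5 with equal weight to the cell cycle classes, 2 with the mean over cells, and 1 (Unc5c) without the top cell of each day, an alternative chosen after seeing the data. Median-ratio scaling and leaving out cells under 5000 UMIs lost no call. Calls gained numbered 3 after thinning and 1 each within batch 2, between batches 1 and 3 and with equal weight to the cell cycle classes. Over 46 named genes the log2 change turned in 4, the cause of which was not tested: Efnb2 to -0.057, Ephb2 to -0.15 and Plxna1 to -0.11 after thinning, and Ephb4 to 0.19 between batches 1 and 3. The allelic share of X-linked members was not run, since too few allelic UMIs were present. Depth limits the 21 genes under 20 UMIs. No paired analysis was possible because each day is 1 sample and the replicate numbers only name libraries.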

Other observations

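The chromosome 5 stretch with Sema3d, Sema3a, Sema3e and Sema3c has a gap of 3318 kb between Sema3e and Sema3c. That gap holds 3 other genes with at least 20 UMIs, and all were called higher at day 2.5. Of all genes 20.7% were called higher, and of genes over 200 kb, as Pclo and Cacna2d1 are, 44.5%. The 3 genes are too few to set against these shares, and a common cause was not tested. Pclo, a presynaptic scaffold protein, was at 20.7 CPM at day 0.5 and 61.7 CPM at day 2.5, and Cacna2d1, a calcium channel subunit, at 69.3 and 274 CPM. Hgf, a growth factor, was at 0 and 22.4 CPM.

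At day 2.5, 122 of the 205 cells were also in the authors' allele table and 83 were not, by a rule that no source used here states. Xist, the RNA that coats the inactive X, was at 2490 CPM inside and 83.1 CPM outside that table. Among the named guidance genes, Slit2 was at 130 CPM inside and 70.9 CPM outside, Sema3c at 85.1 and 51.96 CPM, and Ephb1 at 65.3 and 37.9 CPM. Lower inside were Robo2, at 18.2 and 33.8 CPM, and Sema5b, at 86.7 and 125.5 CPM. These 5 genes were picked after their values were seen. Sema6a was at 2848 and 2513 CPM.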
